A study of Sus scrofa with 15 samples.

Results

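LRP6 and PTK7 are cell surface proteins of the Wnt pathway, and their transcripts were followed in a pig kidney cell line in which human PKD2, a causal gene of autosomal dominant polycystic kidney disease (ADPKD), was overexpressed. The members are 2 rows of a table of 16660 genes, LRP6 (ENSSSCG00000000625) and PTK7 (ENSSSCG00000001660). They were chosen because of what earlier comparisons of these same libraries had shown: LRP6 was called lower in Tg1 than in the empty plasmid control (NC), and PTK7 was called lower in Tg2 than in NC. Those differences are therefore given as descriptions without a test, and the tests below concern the other plasmids. LRP6 was lowest in Tg1, where its mean was 24.0% below NC. Every Tg1 library was below every NC library, as in 14.8% of all genes tested. PTK7 was lowest in Tg2, 19.2% below NC in the mean, and next lowest in Tg3, 12.6% below.

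Wnt proteins bind Frizzled receptors together with a co-receptor, and the co-receptor decides which branch of signalling follows. In the canonical branch, LRP6 is phosphorylated on its cytoplasmic tail, draws Axin to the membrane and lets beta-catenin accumulate and act with TCF factors in the nucleus. PTK7 is a receptor with an inactive kinase domain that is best known from planar cell polarity, the branch that orients cells within the plane of an epithelium. In the kidney, canonical signalling is needed to form nephrons and planar cell polarity helps to orient the cells of an elongating tubule, and both branches have been studied in cystic kidney disease.

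The cells were LLC-PK1, an established line from pig renal proximal tubule epithelium. All wells received 3 µg of a plasmid with the same backbone by lipofection, so that NC cells also carried the CAG promoter vector, but without a PKD2 insert. WT, Tg1, Tg2 and Tg3 cells received CAG-driven human PKD2 with a FLAG sequence at its 3′ end, unmutated in WT, with the D511V change in Tg1 (A1532T in the coding sequence), with L656W in Tg2 (T1967G) and with the stop codon R742X in Tg3 (C2224T), which removes the C-terminal tail, so that the Tg3 protein also lacks the FLAG tag. Expression was transient in a single line, pig PKD2 was present in every group, and RNA was taken 2 days after transfection from 3 of the 4 wells of each plasmid, giving 15 libraries. Wells of the same line are technical cultures rather than animals, so the p-values measure only the spread between wells.

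Library totals were 22107982 to 26132196 counts for NC and 20999779 to 22106028 for WT. They were 22700986 to 25736040 for Tg1, 22184915 to 23485932 for Tg2 and 20216200 to 23810062 for Tg3. At this depth LRP6 had 748 to 1173 counts per library and PTK7 had 555 to 881, so that counting alone gives a coefficient of variation of 2.92% to 3.66% for LRP6 and of 3.37% to 4.24% for PTK7. Levels are given as CPM, the count of a gene as a share of the TMM-scaled library total, and differences as log2 fold changes from edgeR. CPM was not divided by transcript length, so levels are compared between groups and not between genes.

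The label of the line was compared with marker genes. Of 22 proximal tubule and renal epithelial markers, 19 were in the table and 18 were at or above a mean of 2 CPM, among them the endocytic receptors LRP2 (mean of all libraries 260 CPM) and CUBN (81.2 CPM) and the glucose transporter SLC5A2 (77.6 CPM). The keratin KRT8 was the most abundant, at 2135 to 2493 CPM. CDH2 averaged 0.76 CPM. Of 23 genes in the table from 4 lists of other cell types, 7 were at or above a mean of 2 CPM. Distal nephron and collecting duct markers accounted for 4 of these, out of 7 in the table, and were led by the proton pump subunit ATP6V1B1 at 205 to 246 CPM. Among fibroblast markers, LUM, PDGFRA and PDGFRB averaged 0.01 to 0.02 CPM, whereas COL1A2 averaged 922 CPM. Among leukocyte markers, PTPRC averaged 0.02 CPM and CD3E 20.5 CPM, and no endothelial marker reached 2 CPM.

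LRP6 was at 48.0, 42.6 and 45.1 CPM in the 3 NC libraries, a mean of 45.3 ± 2.74 CPM (SD, n = 3). In WT it was at 42.4, 42.9 and 44.8 CPM (43.4 ± 1.24 CPM, SD, n = 3). The WT values lay within or just below the NC range. In bulk RNA, fewer cells with a transcript and less of it per cell cannot be told apart, here and in all values that follow.

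In Tg1, LRP6 was at 32.5, 34.3 and 36.4 CPM, a mean of 34.4 ± 1.93 CPM (SD, n = 3). The highest Tg1 library was below the lowest library of any other plasmid, which was a Tg2 library at 39.6 CPM. The Tg1 mean was 76.0% of the NC mean, and the log2 fold change was -0.39 (standard error, SE, 0.05). Since this contrast brought LRP6 forward, no test is attached to it, and 14.8% of the 11553 genes tested had Tg1 below NC without overlap. How many genes had Tg1 below every other plasmid in this way was not counted. With same-numbered libraries set against each other, the Tg1 library was below the NC library on the log2 scale by a difference of -0.55 for replicate 1, -0.30 for replicate 2 and -0.31 for replicate 3.

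In Tg2, LRP6 was at 41.6, 39.6 and 40.6 CPM (40.6 ± 0.985 CPM, SD, n = 3). In Tg3 it was at 43.8, 43.1 and 43.5 CPM (43.5 ± 0.372 CPM, SD, n = 3). The Tg2 libraries were all below the NC libraries, as in 18.0% of all genes tested, and the Tg3 libraries overlapped with the NC libraries.

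**Figure D1:**
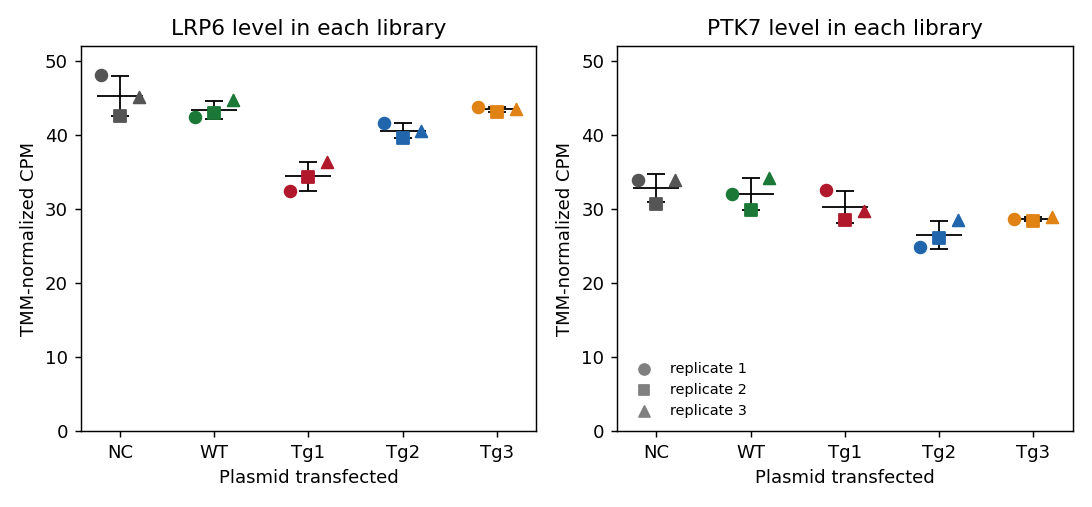
TMM-normalized CPM (vertical axis, from 0) of LRP6 and PTK7 in each library, grouped by plasmid on the horizontal axis. Symbols mark the replicate number, and the black bars are the mean ± SD of 3 libraries. The 3 Tg1 libraries of LRP6, at 32.5 to 36.4 CPM, lie below all others, whereas the PTK7 values fall more gradually from NC to Tg2.

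PTK7 was at 33.9, 30.6 and 33.9 CPM in NC, a mean of 32.8 ± 1.89 CPM (SD, n = 3). In WT it was at 32.1, 29.8 and 34.1 CPM (32.0 ± 2.16 CPM, SD, n = 3), and in Tg1 at 32.6, 28.5 and 29.7 CPM (30.3 ± 2.12 CPM, SD, n = 3). NC, WT and Tg1 overlapped, and replicate 2 was the lowest library of each of these 3 groups.

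In Tg2, PTK7 was at 24.8, 26.1 and 28.6 CPM, a mean of 26.5 ± 1.91 CPM (SD, n = 3). In Tg3 it was at 28.7, 28.4 and 28.9 CPM (28.7 ± 0.272 CPM, SD, n = 3). The libraries of these 2 groups were all below the lowest NC library, as in 18.0% of all genes tested for Tg2 and 13.9% for Tg3. Tg2 replicate 3 fell within the Tg3 range. The Tg2 mean was 80.8% of the NC mean, with a log2 fold change of -0.31 (SE 0.07), which is again a description because PTK7 was chosen on it. The 3 same-numbered differences between Tg2 and NC were -0.43, -0.22 and -0.24 on the log2 scale.

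The order of the LRP6 means from high to low was NC, Tg3, WT, Tg2 and Tg1, and that of PTK7 was NC, WT, Tg1, Tg3 and Tg2. For LRP6, the neighbours NC and Tg3, and Tg3 and WT, overlapped, while Tg2 lay below WT without overlap, as did 12.4% of all genes tested, and Tg1 below Tg2, where 12.0% of genes were higher in Tg2 without overlap. For PTK7, every pair of neighbours in the order overlapped. Each gene had all 4 PKD2 plasmids below NC in the mean, as did 2541 of the 11553 genes tested (22.0%). Neither gene had all 12 PKD2 libraries below all 3 NC libraries, which held for 69 genes (0.597%).

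Each plasmid was then compared with NC and with the others in edgeR's quasi-likelihood fit of all 15 libraries, where a gene was called if its adjusted p-value was at most 0.05 and its log2 fold change at least 0.26 in size. By this rule, the share of the 11553 genes called against NC was 0% for WT, 1.19% for Tg1, 8.43% for Tg2 and 0% for Tg3. Leaving out single libraries gave 0 to 25 calls for WT, the highest without WT replicate 2, and 0 for Tg3. For Tg1, 138 genes were called with all libraries, 16 without Tg1 replicate 2 and 255 without WT replicate 2. For Tg2 the 974 calls became 0 without NC replicate 3 or Tg2 replicate 2 and 1880 without Tg2 replicate 3. At an unadjusted p-value under 0.05, edgeR's test gave 277 lower and 247 higher genes in WT, and 1079 lower and 1010 higher genes in Tg3. The comparisons with NC share the same 3 NC libraries, also with the contrasts that chose the genes.

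LRP6 was not called in WT, Tg2 or Tg3. Its log2 fold change in WT was -0.06 (SE 0.05, edgeR adjusted p = 1.00), and in Tg3 it was also -0.06 (SE 0.05, edgeR adjusted p = 0.541). In Tg2 the log2 fold change was -0.16 (SE 0.05, edgeR adjusted p = 0.0552), and the Tg2 and NC libraries did not overlap (two-sided exact permutation p = 0.1, the smallest that 3 against 3 allows). Lower libraries without overlap were seen in Tg2 for 18.0% of all genes tested, so this separation was common.

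PTK7 was not called in WT, Tg1 or Tg3. The log2 fold changes were -0.03 in WT (SE 0.07, edgeR adjusted p = 1.00) and -0.12 in Tg1 (SE 0.07, edgeR adjusted p = 0.363). In Tg3 the log2 fold change was -0.19 (SE 0.07, edgeR unadjusted p = 0.0150 and adjusted p = 0.203), with no overlap between Tg3 and NC (two-sided exact permutation p = 0.1). Lower libraries without overlap were seen in Tg3 for 13.9% of all genes tested.

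Differences that use none of the libraries of the choosing contrast were tested for 3 pairs of plasmids per gene, and none of the 6 was called. By the same rule, 5.92% of all genes tested were called in Tg2 against WT, 0.0692% in Tg1 against WT, 0.615% in Tg3 against Tg1, and 0% in Tg3 against WT and in Tg3 against Tg2. These shares depended on the fit and on single libraries. With only the groups compared in the fit, 0 genes were called in Tg2 against WT and in Tg1 against WT, and 32 in Tg3 against Tg1. In the fit of all groups without WT replicate 2, the calls against WT rose from 684 to 2421 in Tg2, from 8 to 854 in Tg1 and from 0 to 1321 in Tg3. Without WT replicate 3 they were 0 in each. Tg2 against WT also had 0 calls without Tg2 replicate 1 or Tg2 replicate 2 and 1 call without WT replicate 1. The 71 calls in Tg3 against Tg1 fell to 3 without Tg3 replicate 3 and to 4 without Tg1 replicate 1 or Tg3 replicate 2, and were 113 without Tg1 replicate 3. For Tg3 against WT, where same-numbered libraries deviated together, the fit with the replicate block called 111 genes (0.961%). The 6 differences of LRP6 and PTK7 were not called in these fits either. For LRP6, Tg2 was below WT by a log2 fold change of -0.10 (95% interval -0.21 to 0.02, edgeR adjusted p = 0.206), and Tg3 was 0.00 from WT (95% interval -0.11 to 0.11, edgeR adjusted p = 0.977). LRP6 was higher in Tg3 than in Tg2 by 0.10 (95% interval -0.01 to 0.21, edgeR adjusted p = 0.822), without overlap, as were 6.05% of genes tested. The intervals do not show that these plasmids left LRP6 at the same level.

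For PTK7, Tg3 was below WT by a log2 fold change of -0.16 (95% interval -0.31 to -0.01, edgeR unadjusted p = 0.0403 and adjusted p = 0.242), and the 3 Tg3 libraries were all below the 3 WT libraries (two-sided exact permutation p = 0.1). That separation held for 10.3% of genes tested. The difference of Tg1 from WT was -0.08 (95% interval -0.23 to 0.07, edgeR adjusted p = 0.571), and that of Tg3 from Tg1 was -0.08 (95% interval -0.23 to 0.07, edgeR adjusted p = 0.656).

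The remaining differences use libraries of the choosing contrasts and are given as values. LRP6 in Tg1 was below WT by a log2 fold change of -0.33 (SE 0.05), and it was higher than Tg1 by 0.24 in Tg2 and by 0.34 in Tg3. PTK7 in Tg2 was below WT by -0.27 and below Tg1 by -0.19 (SE 0.07 for each), and it was higher in Tg3 than in Tg2 by 0.11. LRP6 in Tg1 did not overlap with any of the other 4 plasmids in these libraries, which is a description because the Tg1 libraries chose LRP6. PTK7 in Tg2, chosen in the same way, overlapped with Tg1 and Tg3. The PTK7 levels of Tg1 overlapped with those of NC and WT.

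**Figure D2:**
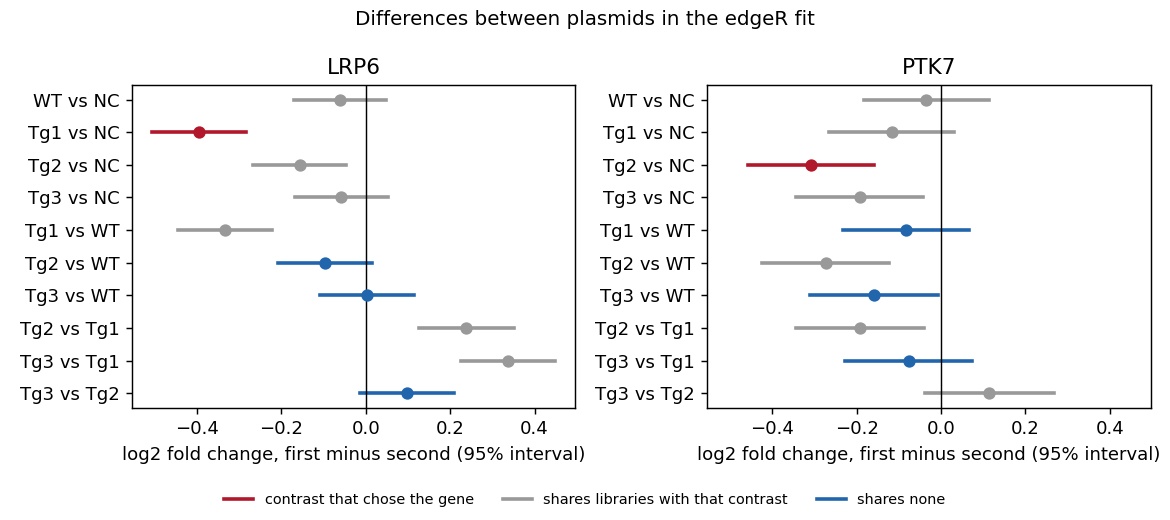
Log2 fold change (horizontal axis) of LRP6 and PTK7 for the 10 pairs of plasmids, named first minus second, with 95% intervals from the edgeR fit. Red marks the contrast that chose the gene, and the red intervals do not allow for that choice and are not tests. Grey marks contrasts that share libraries with it and blue those that share none. The blue intervals of LRP6 all include 0, while that of PTK7 in Tg3 against WT ends at -0.01.

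**Figure D3:**
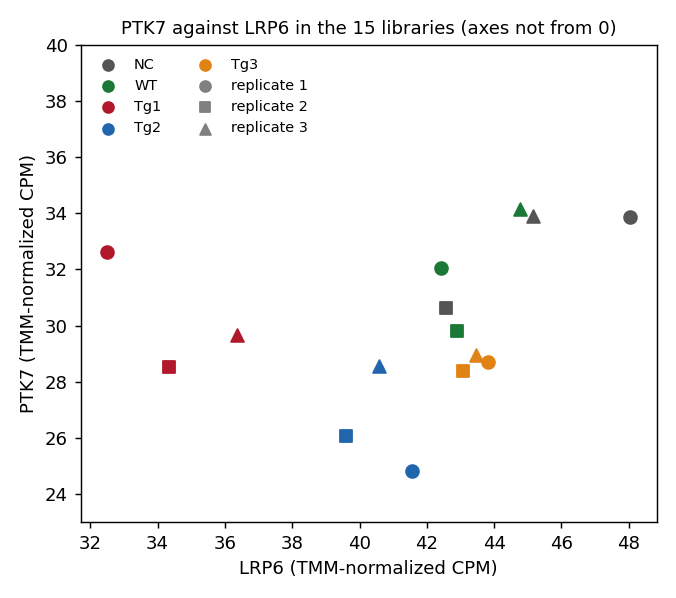
PTK7 against LRP6, both in TMM-normalized CPM on axes that do not start at 0, for the 15 libraries, with colour for the plasmid and symbol for the replicate number. The 3 Tg1 libraries have the lowest LRP6. Tg2 replicates 1 and 2 have the lowest PTK7, while Tg2 replicate 3, at 28.6 CPM, lies within the PTK7 ranges of Tg1 and Tg3.

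Across the 15 libraries, the log2 levels of LRP6 and PTK7 had a Pearson correlation of 0.22 and a Spearman correlation of 0.45, and their deviations from the plasmid means had a Pearson correlation of 0.11. These are descriptions over 15 libraries that share plasmids and a common scaling. Of the other genes tested, 27.9% had a higher Pearson correlation with LRP6 than PTK7 had. The ratio of LRP6 to PTK7 counts within a library, which does not depend on the scaling, was 1.42, 1.39 and 1.33 in NC and 1.32, 1.44 and 1.31 in WT. It was 0.996, 1.20 and 1.23 in Tg1, and 1.67, 1.52 and 1.42 in Tg2. In Tg3 it was 1.53, 1.52 and 1.50, so that Tg1 lay below and Tg3 above all libraries of NC and WT.

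Among genes with a symbol, those with the pattern most like that of LRP6 over the 15 libraries were ARHGEF12 (Pearson correlation 0.951), LPP (0.941), PRKAR2A (0.935), ARHGAP5 (0.930) and PTAR1 (0.929), by the log2 of CPM plus 1. All 5 had their most negative log2 fold change against NC in Tg1, from -0.21 for ARHGEF12, a guanine nucleotide exchange factor, to -0.92 for LPP, a protein of focal adhesions. These genes were picked by likeness over libraries that include Tg1, so a low level there is part of the choice. The same holds in Tg2 for the genes picked for PTK7. PRKAR2A, a regulatory subunit of protein kinase A, differed from NC by -0.36 in Tg1 and -0.19 in Tg2 on the log2 scale. The genes with a symbol and the most opposite pattern were KIF12 (-0.895), WFDC2 (-0.892) and MRM2 (-0.870). After the plasmid means were removed, the correlations of ARHGEF12 and the other 4 like genes with LRP6 ranged from 0.187 for ARHGAP5 to 0.857 for ARHGEF12.

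The genes with a symbol most like PTK7 were IGSF11 (Pearson correlation 0.977), DDAH1 (0.968), XXYLT1 (0.964), GPT2 (0.962) and MTARC2 (0.960), and the most opposite were NCOA7 (-0.971), CCN3 (-0.971) and TCAF1 (-0.969). IGSF11, a cell adhesion protein of the immunoglobulin superfamily, had log2 fold changes of -0.51 in Tg2 and -0.29 in Tg3. CCN3, a secreted matricellular protein, had log2 fold changes of 1.06 in Tg2 and 0.63 in Tg3. Within plasmids, the 5 genes named as most like PTK7 still had correlations of 0.905 to 0.957 with it. A Pearson correlation above 0.9 over the 15 libraries was held by 18 genes for LRP6 and by 192 for PTK7, and one below -0.9 by 0 and 475 genes of 11552. PTK7 thus varied together with many more genes than LRP6 did, also between wells of the same plasmid, where 79 genes had a correlation above 0.9 with PTK7 and 0 with LRP6. The TMM factor of the library was lowest in Tg2 replicates 1 and 2 (0.952 and 0.965), the 2 libraries lowest in PTK7. It was highest in WT replicate 3 and NC replicate 3 (1.045 and 1.037), with PTK7 at 34.1 and 33.9 CPM. Whether this shared variation is a trait of the libraries rather than of PTK7 or of Tg2 was not tested.

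**Figure D4:**
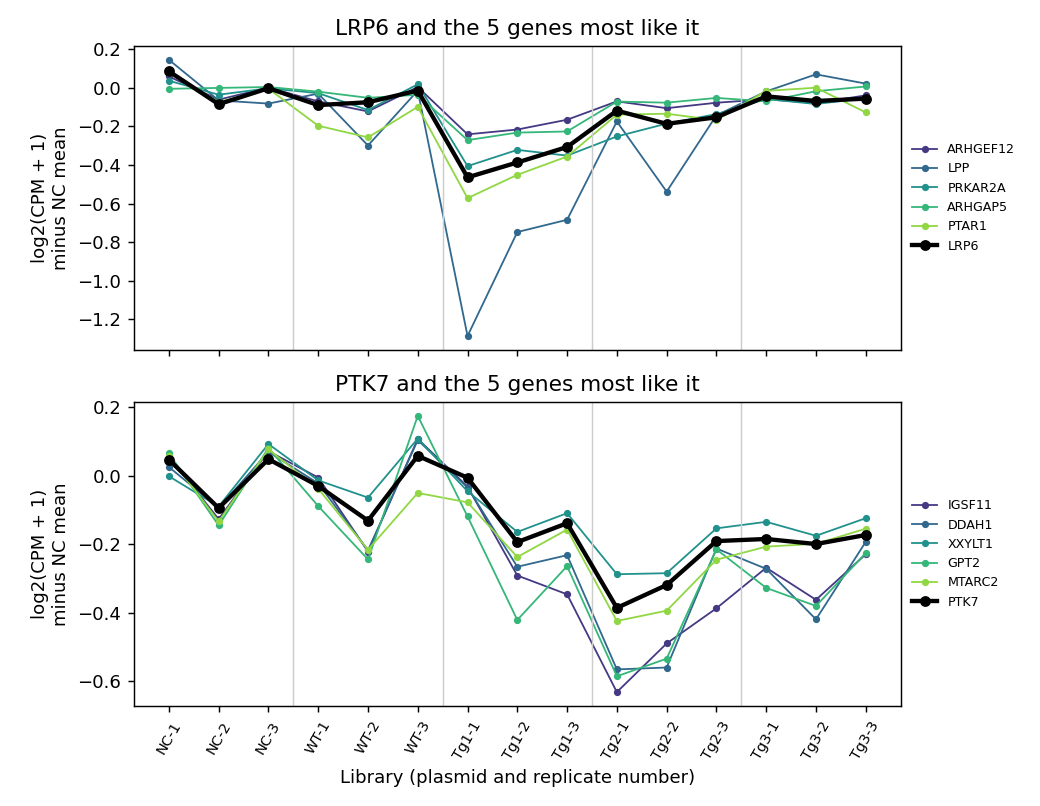
Log2 of TMM-normalized CPM plus 1, minus the NC mean (vertical axis), of LRP6 and PTK7 (black) and of the 5 genes with a symbol most like each (colours) in the 15 libraries, ordered by plasmid and replicate on the horizontal axis. The genes like LRP6 dip in the 3 Tg1 libraries, and those like PTK7 are lowest in Tg2 replicates 1 and 2, as PTK7 is, although their order within a group is not always that of PTK7. The genes were picked by likeness over these same libraries, so the shared dips are part of the choice.

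The other genes of the Wnt pathway were taken from 9 lists by role, with LRP6 and PTK7 left out. Of 201 genes, 175 were in the table and 130 passed the filter of a mean of 2 CPM. None of the 130 was called in WT or Tg3 by edgeR, and DESeq2 called 2 in each. At an unadjusted p-value under 0.05, edgeR gave 11 of the 130 in WT (8.46%, against 4.54% of all genes tested), 34 in Tg1 (26.2%, against 19.9%), 54 in Tg2 (41.5%, against 35.2%) and 24 in Tg3 (18.5%, against 18.1%). In Tg1, 27 of these 34 were lower and 7 higher, beside 1287 lower and 1017 higher of all genes tested. DESeq2 gave an adjusted p-value to 48 of the 130 in WT and to 91 in Tg3, and over all genes with one it called 0.362% in WT and 0.759% in Tg3. The 2 genes called by DESeq2 were MYC and FOSL1 in both plasmids, each higher than in NC. In Tg1, 5 were called (3.85%, against 1.19% of all genes tested), 4 lower and 1 higher, where 1.01% of all genes were called lower and 0.182% higher. In Tg2, 14 were called (10.8%, against 8.43% of all genes tested), 6 lower and 8 higher, where 3.70% of all genes were called lower and 4.73% higher. The median log2 fold change of the 130 genes was -0.03 in Tg1 and -0.02 in Tg2, beside 0.00 and -0.01 for all genes tested. The lists were drawn up with earlier results of these data known. The shares called, here and in the single lists below, are therefore descriptions and not a test of the pathway.

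Among receptors and co-receptors, 11 genes were tested besides LRP6 and PTK7. In Tg2, 2 of them (18.2%) were called, beside 8.43% of all genes tested. LRP5, the closest relative of LRP6 and likewise a canonical co-receptor, was at 86.1 ± 3.30 CPM (SD, n = 3) in NC and its log2 fold changes in WT, Tg1, Tg2 and Tg3 were 0.08, -0.03, 0.07 and 0.12 (SE 0.07 for each), none of them called. In Tg1 the values of LRP5, 82.2 to 87.7 CPM, overlapped with those of NC, 82.7 to 89.3 CPM. ROR2, a receptor tyrosine kinase for non-canonical Wnt proteins, rose in Tg2 from 4.19 ± 0.0971 CPM to 6.46 ± 0.687 CPM (SD, n = 3), with a log2 fold change of 0.63 (SE 0.17, edgeR adjusted p = 0.0316). Its log2 fold changes in Tg1 (0.51) and Tg3 (0.63) were not called. GPC6, a glypican that presents ligands at the cell surface, fell in Tg2 from 67.0 ± 6.82 CPM to 53.3 ± 4.35 CPM (SD, n = 3), with a log2 fold change of -0.33 (SE 0.08, edgeR adjusted p = 0.0251).

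The genes that fold LRP6 or modify its tail included 14 tested genes, of which 2 (14.3%) were called, both lower in Tg2. Of all genes tested, 3.70% were called lower in Tg2. CDK14, the cyclin Y-dependent kinase that phosphorylates LRP6, fell from 101 ± 8.26 CPM in NC to 79.3 ± 5.74 CPM in Tg2 (SD, n = 3), with a log2 fold change of -0.35 (SE 0.08, edgeR adjusted p = 0.021). CAPRIN2, which promotes LRP6 phosphorylation, fell from 10.5 ± 0.965 CPM to 8.12 ± 0.726 CPM (SD, n = 3), with a log2 fold change of -0.37 (SE 0.10, edgeR adjusted p = 0.031). In Tg1, where LRP6 itself was lowest, the log2 fold changes of CDK14 and CAPRIN2 were -0.24 and -0.32 and neither was called. CCNY, the cyclin partner of CDK14, was added after its values were seen, and its log2 fold change in Tg2 was 0.23 (edgeR adjusted p = 0.0374), below the fold threshold and opposite in sign to CDK14. MESD, the chaperone that LRP6 needs to leave the endoplasmic reticulum, was at 71.9 ± 3.46 CPM in NC and 71.9 ± 1.04 CPM in Tg2 (SD, n = 3) and had log2 fold changes of 0.00 to 0.07 in the 4 comparisons.

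Of ligands, secretion factors and R-spondins, 6 genes were tested, and 1 (16.7%) was called in Tg2, beside 8.43% of all genes tested. The ligand WNT10B fell in Tg2 from 10.4 ± 0.668 CPM to 8.38 ± 0.767 CPM (SD, n = 3), with a log2 fold change of -0.31 (SE 0.09, edgeR adjusted p = 0.0436). Of extracellular and membrane inhibitors, 4 genes were tested, and 1 (25%) was called in Tg2, beside the same 8.43%. This was CTHRC1, which fell in Tg2 with a log2 fold change of -0.47 (SE 0.13, edgeR adjusted p = 0.0315). CTHRC1 is a secreted protein that is known to stabilise complexes of Wnt proteins with Frizzled and ROR2 rather than to block them.

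Of 21 genes of the beta-catenin destruction complex and its regulators, 2 fell in Tg1 (9.52%) and 0 were called in Tg2. Of all genes tested, 1.01% were called lower in Tg1 and 8.43% were called in Tg2. USP34, a deubiquitinase of Axin, fell from 107 ± 1.35 CPM to 85.6 ± 4.20 CPM (SD, n = 3), with a log2 fold change of -0.32 (SE 0.05, edgeR adjusted p = 0.0079). TNKS, a tankyrase that marks Axin for degradation, fell with a log2 fold change of -0.28 (SE 0.06, edgeR adjusted p = 0.0235). CTNNB1, which encodes beta-catenin, had values of 0.04, 0.09, 0.17 and 0.11 on the log2 scale in WT, Tg1, Tg2 and Tg3, none called.

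Among 14 tested beta-catenin/TCF target genes, 1 was called in Tg1 (7.14%) and 3 in Tg2 (21.4%), all higher. Of all genes tested, 0.182% were called higher in Tg1 and 4.73% in Tg2. MYC differed from NC by 0.34 in Tg1 and 0.52 in Tg2 on the log2 scale. FOSL1, a subunit of AP-1, rose in Tg2 by a log2 fold change of 0.71 (SE 0.12, edgeR adjusted p = 0.0107), and PLAUR, the urokinase receptor, by 0.88 (SE 0.25, edgeR adjusted p = 0.0369) from 2.62 ± 0.308 CPM (SD, n = 3) in NC. AXIN2, the target gene most often read as a measure of canonical signalling, was low, at 2.64 ± 0.579 CPM (SD, n = 3) in NC. Its log2 fold changes were -0.05, -0.04, -0.47 and -0.16 in WT, Tg1, Tg2 and Tg3, with SEs of 0.29 to 0.30, and none was called, so that only a large change could have been detected. Of 16 nuclear factors, 1 (6.25%) was called in Tg2, beside 8.43% of all genes tested. This was CTNNBL1, with a log2 fold change of 0.27 (SE 0.08, edgeR adjusted p = 0.0479). Despite its name, CTNNBL1 is known as a component of the spliceosome.

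Of 25 tested planar cell polarity genes, the branch of PTK7, 1 was called in each of Tg1 and Tg2 (4%). Of all genes tested, 1.19% were called in Tg1 and 8.43% in Tg2. ROCK2, a kinase that acts on the actomyosin cytoskeleton, fell in Tg1 from 73.3 ± 0.889 CPM to 55.2 ± 5.32 CPM (SD, n = 3), with a log2 fold change of -0.41 (SE 0.07, edgeR adjusted p = 0.0101). GRHL3, an epithelial transcription factor, rose in Tg2 by a log2 fold change of 0.33 (SE 0.10, edgeR adjusted p = 0.0371). VANGL1, a core membrane protein of the branch, was at 44.1 ± 2.37 CPM (SD, n = 3) in NC and had log2 fold changes from -0.05 in Tg1 to 0.07 in WT, none called.

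Of 19 tested genes of the Wnt/calcium branch, 1 was called in Tg1 (5.26%, against 1.19% of all genes tested) and 3 in Tg2 (15.8%, against 8.43%). NFAT5 fell in Tg1 from 57.6 ± 3.11 CPM to 37.7 ± 2.66 CPM (SD, n = 3), with a log2 fold change of -0.61 (SE 0.09, edgeR adjusted p = 0.00682). NFAT5 is known as the transcription factor of the response to hypertonicity and, unlike other NFAT proteins, is not controlled by calcineurin. In Tg2 the phospholipase PLCB4 fell by 0.32 on the log2 scale (SE 0.07, edgeR adjusted p = 0.0212), while the phospholipase PLCB3 rose by 0.55 (SE 0.15, edgeR adjusted p = 0.0318) and the protein kinase C isoform PRKCD by 0.41 (SE 0.11, edgeR adjusted p = 0.0297).

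These calls rested on single libraries to different degrees. NFAT5 was called in all 6 fits that left out a Tg1 or NC library, USP34 in 5, ROCK2 in 3, MYC in 2 and TNKS in 1. In Tg1, 2 of the 130 genes were called without NC replicate 1, 2 without NC replicate 3, 1 without Tg1 replicate 2 and 7 without WT replicate 2. In Tg2, 1 was called without NC replicate 1, 0 without NC replicate 3, 2 without Tg2 replicate 1 and 0 without Tg2 replicate 2, but 22 without WT replicate 2 and 33 without Tg2 replicate 3. MYC was called in 4 of the 6 fits for Tg2 and FOSL1 in 3. The other calls named in Tg2, including those of the receptors related to LRP6, the proteases and the markers below, were made in 2 of the 6 and lost without NC replicate 1, NC replicate 3, Tg2 replicate 1 or Tg2 replicate 2.

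**Figure D5:**
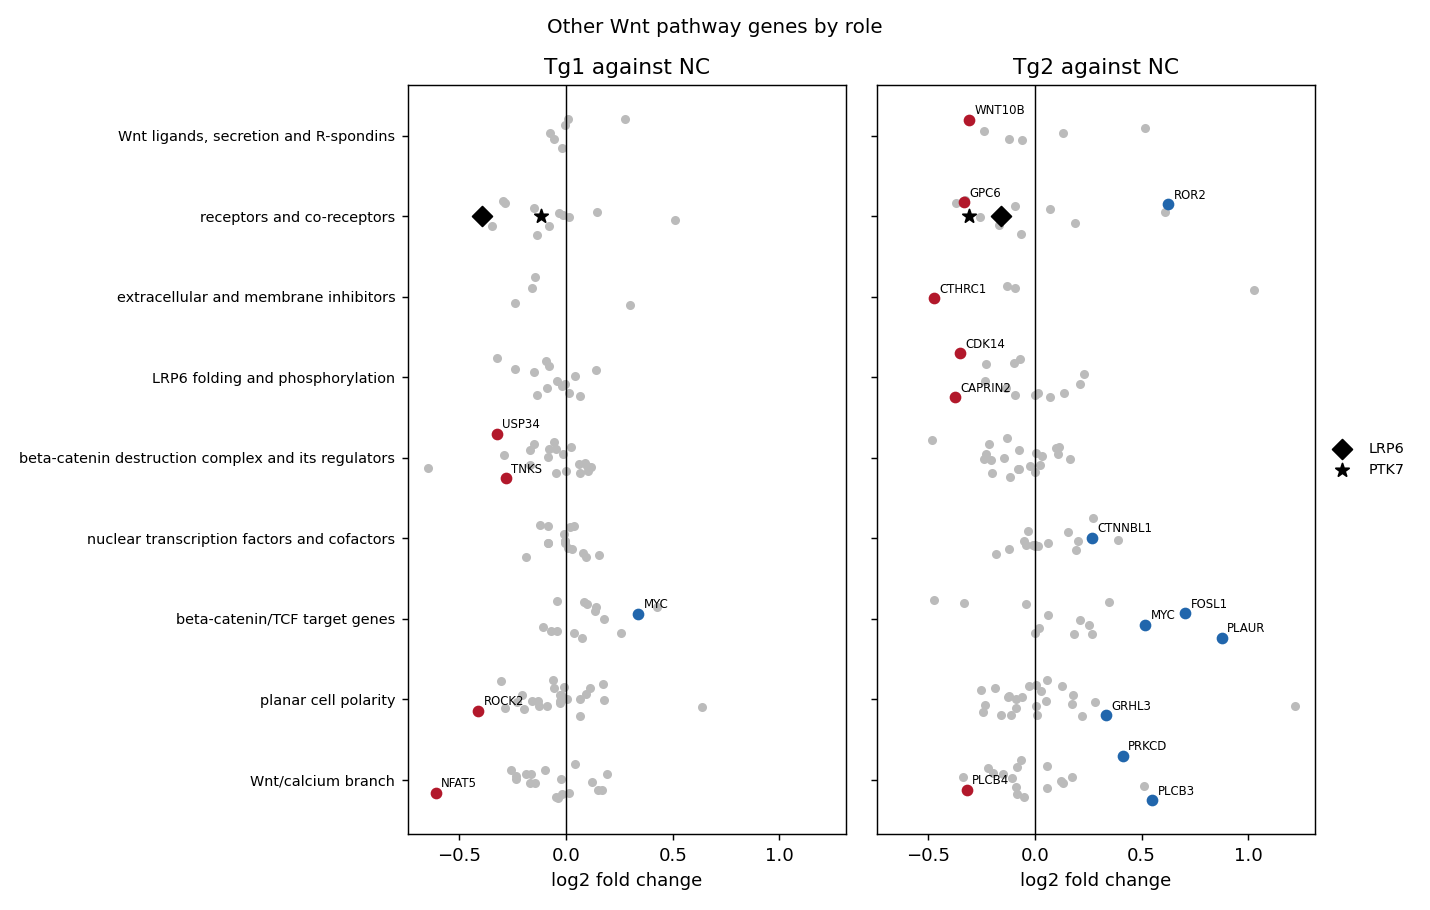
Log2 fold change against NC (horizontal axis) in Tg1 and Tg2 of the tested Wnt pathway genes, grouped by role on the vertical axis, with height within a group only to separate points. Red points were called lower, blue points called higher and grey points not called, and the black symbols are LRP6 (diamond) and PTK7 (star). The calls are 4 lower and 1 higher gene in Tg1, and 6 lower and 8 higher genes in Tg2.

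Other receptors related to LRP6 in structure were also called in Tg2, where 8.43% of all genes tested were called. Of these receptors 9 were tested, and since 1 gene is not reported here, no share of the list is given. LRP10 rose by a log2 fold change of 0.45 (SE 0.11, edgeR adjusted p = 0.0254) and the sorting receptor SORL1 by 0.28 (SE 0.08, edgeR adjusted p = 0.037). LRP2, the megalin of the proximal tubule brush border, was lower in Tg2, with a log2 fold change of -0.35 (SE 0.08, edgeR adjusted p = 0.0233). In Tg1, LRP2 had a log2 fold change of -0.30 that was not called (edgeR adjusted p = 0.0756).

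PTK7 is cut at the cell surface by metalloproteases and then by gamma-secretase, and 8 genes of this machinery were tested. In Tg2, 2 of them (25%) were called, beside 8.43% of all genes tested. In Tg2, PSEN2, a catalytic subunit of gamma-secretase, rose by a log2 fold change of 0.34 (SE 0.09, edgeR adjusted p = 0.0321), and APH1B, an accessory subunit, was lower with -0.55 (SE 0.14, edgeR adjusted p = 0.0274). None was called in the other plasmids.

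Several proximal tubule markers were also lower in Tg2. Of 18 tested markers, 7 were called in Tg2 (38.9%), where 8.43% of all genes tested were called. Of the 7, 6 were lower (LRP2, CUBN, SLC5A2, SLC34A1, ANPEP and VIL1) and CDH1 was higher, and no marker was called in WT, Tg1 or Tg3. CUBN, ANPEP and CDH1 were named after their values were seen, and each was called. The share of markers called therefore partly reflects that choice and cannot be set against that of all genes. The median log2 fold changes of the 18 markers were -0.02, -0.08, -0.23 and -0.20 for WT, Tg1, Tg2 and Tg3. The phosphate transporter SLC34A1 fell in Tg2 by a log2 fold change of -0.46 (SE 0.10, edgeR adjusted p = 0.021). The summed level of the 19 markers in the table, most of it KRT8 and KRT18, was 4934 ± 33.8 CPM in NC and 4992 ± 129 CPM in Tg2 (SD, n = 3). It was 5073 ± 59.1 CPM in WT, 5191 ± 63.5 CPM in Tg1 and 4965 ± 45.4 CPM in Tg3 (SD, n = 3). Of the distal nephron markers, SLC12A1, the sodium-potassium-chloride transporter, fell in Tg2 by a log2 fold change of -0.51 (SE 0.11, edgeR adjusted p = 0.0168). The summed level of the distal list, led by ATP6V1B1, was 281 ± 4.42 CPM in NC and 250 ± 13.4 CPM in Tg2 (SD, n = 3). It was 283 ± 4.99 CPM in WT, 264 ± 13.4 CPM in Tg1 and 262 ± 9.18 CPM in Tg3 (SD, n = 3). CALB1 and UMOD averaged 0.04 and 0.14 CPM. The summed fibroblast list was at 949 ± 20.2 CPM in NC and 864 ± 14.7 CPM in Tg2 (SD, n = 3), nearly all of it COL1A2, whose log2 fold change in Tg2 was -0.14 and was not called. The summed leukocyte list was at 25.9 ± 0.373 CPM in NC and 26.8 ± 2.66 CPM in Tg2 (SD, n = 3), and its CD68 had a log2 fold change of -0.58 in WT that was not called (edgeR adjusted p = 0.795). The part of any of these shifts in the LRP6 and PTK7 differences was not tested.

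Genes beside LRP6 and PTK7 in the RefSeq order of named protein-coding genes of Sscrofa11.1 were looked up after the values were seen. None of the 4 around LRP6 (DUSP16, MANSC1, BCL2L14 and ETV6) or the 4 around PTK7 (MRPL2, KLC4, SRF and CUL9) was called against NC in any plasmid. In Tg1 the neighbours of LRP6 had log2 fold changes from -0.05 for DUSP16 to 0.18 for BCL2L14. KLC4, a kinesin light chain next to PTK7, had a log2 fold change in Tg2 of -0.27 (SE 0.09, edgeR adjusted p = 0.0561), close to that of PTK7.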

How the data were processed

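RNA of LLC-PK1 cells was sequenced in 15 libraries, 3 for each of 5 plasmids, with groups and replicate numbers from the sample labels, whose titles give WT and Tg3 the same genotype number beside different names and plasmids. The authors quantified transcripts with Salmon 0.14.1 against the pig cDNA of Ensembl 98 and deposited unnormalized whole-number counts for each Ensembl gene. A genome build and how transcripts were summed to genes are not given in the sources used here, so no coordinates are printed. Symbols were matched by identifier (13373 of 16660 genes).

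Genes with a mean of 2 CPM or more over the libraries were tested (11553 genes, 99.8% of counts) with glmQLFit and glmQLFTest of edgeR 4.0.16 (R 4.3.3), TMM scaling, group means only and Benjamini-Hochberg adjustment over all genes tested. The thresholds are those of the study, which used DESeq2. Standard errors are the fold change over the root of its F statistic. The fits were tested on simulated counts. Replicates differed by 2.90 to 46.6 times counting noise (chi-square per degree of freedom), so each library was counted separately.

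The members and gene lists were chosen with earlier results of these data known. Named from each list were the genes called (at most 4 per plasmid, smallest unadjusted p-value first, with exceptions stated in the text), otherwise the gene with the smallest unadjusted p-value, besides AXIN2, CTNNB1, LRP5, VANGL1, ROR2 and MESD. For likeness, the 5 genes with the highest and the 3 with the lowest Pearson correlation were named among those with a symbol, and genes without one were passed over. Same-numbered libraries deviated together with a correlation over 0.1 in all 3 pairs only for NC with WT and WT with Tg3, where the block left 0 calls in WT against NC and gave 111 in place of 0 in Tg3 against WT. One gene of the receptors related to LRP6 is not reported here. Alternatives were DESeq2 1.42.0, its size factors, other filters, only the groups compared, no fold threshold, the replicate block and leaving out each library.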

Additional observations from a re-analysis of the deposited data

How the results depend on the processing

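Of 394 alternative values, 377 kept their direction and their side of the threshold, or stayed within the spread between replicates or, for counts, within 1.5 times, while 13 counts moved further and 4 fold changes near 0 turned sign. LRP6 in Tg1 against NC ranged from -0.44 to -0.35 and PTK7 in Tg2 against NC from -0.37 to -0.26 in log2 fold change when single libraries were left out. LRP6 in Tg3 against WT ranged from -0.012 to 0.028 and PTK7 in WT against NC from -0.084 to 0.014, each including 0. Of the Wnt pathway genes, DESeq2 called 2 in WT and 2 in Tg3, all higher, and dropping the fold threshold gave 9 in Tg1 and 26 in Tg2, while the calls over all genes rose from 138 to 264 and from 974 to 1643. Leaving out single libraries gave 1 to 7 calls in Tg1 and 0 to 33 in Tg2, and the libraries are named with the counts above; the cause was not tested.

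In the fit with the replicate block, LRP6 in Tg2 against NC was at -0.16 on the log2 scale with an edgeR adjusted p of 0.0401, still under the fold threshold, within a range of 0.0314 to 0.188 over all alternatives. PTK7 in Tg3 against NC had an adjusted p of 0.0982 from edgeR with the block. The block gave 6 Wnt pathway calls in Tg1, 21 in Tg2 and 0 in WT and Tg3, where it called 246, 1624, 0 and 11 genes over all tested, and it changed no call in the 12 tested differences of LRP6 and PTK7. Same-numbered libraries correlated over 0.1 in 21 of 30 pairs, and 9 of 15 libraries correlated best with their own number, so except for NC with WT and WT with Tg3 the numbers are only a hint of pairing. Counting alone gave a coefficient of variation of up to 4.24%, and differences between single libraries of that size or less were not detectable at this depth.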
